A study of Caenorhabditis elegans with 2 samples.

Results

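The histone genes of the nematode Caenorhabditis elegans were examined for regions precipitated with PQM-1, a zinc finger transcription factor. The members are the protein-coding genes of the WBcel235 annotation whose symbol starts with his-, which gave 72 of 19973 protein-coding genes on the 6 nuclear chromosomes. Chromatin was taken from whole hermaphrodite embryos of strain OP201, labelled late embryonic, 2 h after egg bleaching. That strain carries unc-119(tm4063) III and the insertion wgIs201, and stably expresses PQM-1 with GFP and FLAG at its C-terminus. The labels name PQM-1 as the antibody's target in one field and an anti-GFP precipitation in another, and the latter is followed here. Chromatin was sonicated, and precipitation was done in 2 biological replicates of a single group, so no comparison between conditions was possible and every value below is a description without a test. The tagged protein comes from an inserted transgene and the embryos were used whole, so binding in different cell types cannot be told apart. The control libraries that the labels name were not analysed here, and the depth of the libraries is unknown.

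Histones package DNA into nucleosomes, in which H2A, H2B, H3 and H4 form the core and H1 binds the linker. Most worm histone genes are replication-dependent genes without introns, which are expressed while DNA is replicated and lie in clusters of divergent H2A/H2B and H3/H4 pairs. Variants such as H3.3 are placed in chromatin outside replication as well. PQM-1 is known from insulin signalling, where it acts beside the FOXO factor DAF-16 and is tied to the DAF-16 associated element TGATAAG.

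Core classes were assigned by protein identity, and 7 members were set as variants by a list of names. Every other member was called a replication-dependent copy, whatever its introns or length. These are 16 H2A, 17 H2B, 16 H3 and 16 H4 genes, which makes 65 genes. Of these, his-37 and his-41 have 2 coding exons and his-57 has 3, and the others have 1. The other 7 were variants: the linker histone his-24, the H2A variant his-35, and the H3.3 genes and relatives his-69, his-70, his-71, his-72 and his-74. The copies are close to identical, and 62 members encode a protein that at least 1 other member encodes letter for letter. Among the copies, his-39, with 67 residues, and his-73, with 46, are short, and their class rests on partial identity. A promoter reached from 1000 bp before an annotated transcript start to 200 bp after it, and for 64 members that start is the first base of the coding sequence.

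The lists hold relaxed calls. Replicate 1 had 28996 regions, replicate 2 had 23228, the pooled replicates had 27694, and the reproducible list consists of the 669 strongest pooled regions. Peak signal is the authors' own value and is used only to rank regions within a list. Since the lists contain background by design, a gene with a region in them need not have a peak: 41.1% of all genes had a pooled region, 40.9% a replicate 1 region and 37.2% a replicate 2 region, whereas 4.67% had a pooled region whose q-value was no higher than 0.01 and 2.75% a reproducible peak.

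Pooled regions were listed at 24 of the 72 histone genes (33.3%), below the 41.1% of all genes, and 48 had none. In the separate lists 21 histone genes had a region in replicate 1 and 24 in replicate 2. The 24 genes had 17 distinct strongest summits between them. Reproducible peaks were at 3 members, namely his-37 and the divergent genes his-67 and his-68. A q-value no higher than 0.01 in the pooled list was reached at 5, which adds his-61 and his-62. These are shares of 4.17% and 6.94%, beside 2.75% and 4.67% of all genes. Because 16 of the 24 shared their strongest summit with another histone gene and 7 shared it with a gene that is no member, assigning each region only to the nearest start left 14 histone genes with a region. The share of all genes under that rule was not computed, so the 14 cannot be set beside the 41.1%.

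Whether a histone promoter had a region went with how much of it is unique in the genome. As a measure of uniqueness, the share of 36-base words in the promoter that occur once in the genome was computed. It had a median of 23.3% at histone promoters and of 100% at the promoters of all genes, and is 92.1% over the whole genome. None of the 40 histone genes with a share under 50% had a pooled region, while 24 of the 32 with at least 50% did (75%). Among all genes the corresponding shares were 4.54% of 573 and 42.2% of 19400. At the threshold, his-17 with 35.2% unique words had no pooled region and a weak one in replicate 2 only (signal 13.6, rank 23057), and his-8 with 50.2%, his-64 with 51.2% and his-7 with 51.9% had none in any list. Read length and the treatment of reads that match several places are not given in the sources, and their part in these counts was not tested.

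**Figure D1:**
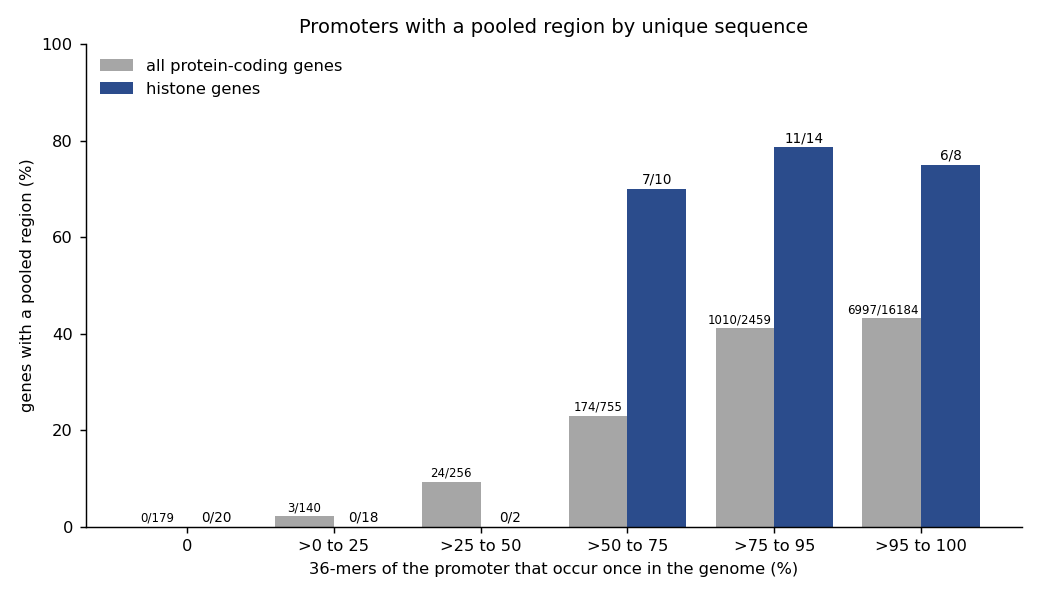
Percent of genes with a pooled region (vertical axis, from 0) by the percent of 36-base words in the promoter that occur once in the genome (horizontal axis), for all protein-coding genes (grey) and histone genes (blue), with counts above the bars. No histone gene had a region in the bins up to 50%, and 7 of 10, 11 of 14 and 6 of 8 had one in the bins above it. Genes that share a summit are counted separately.

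In the bins shown by the plot of regions by uniqueness, regions were at 0 of 179 genes of any kind where no word was unique, at 2.14% up to 25% and at 9.38% up to 50%. In the bins above 50%, regions were at 7 of 10 histone genes beside 23.0% of all genes, at 11 of 14 beside 41.1%, and at 6 of 8 beside 43.2%. Genes that share a summit are counted separately here. The 24 histone genes with a region had 17 distinct strongest summits, so these are not counts of independent promoters. To place members without mixing scales, each gene's strongest promoter region was turned into a percentile among all genes, with genes lacking a region tied at 29.5. The median histone gene was at that tie, and the median of the 32 with at least 50% unique words was at 88.4, where the median of all such genes was still at 29.5.

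**Figure D2:**
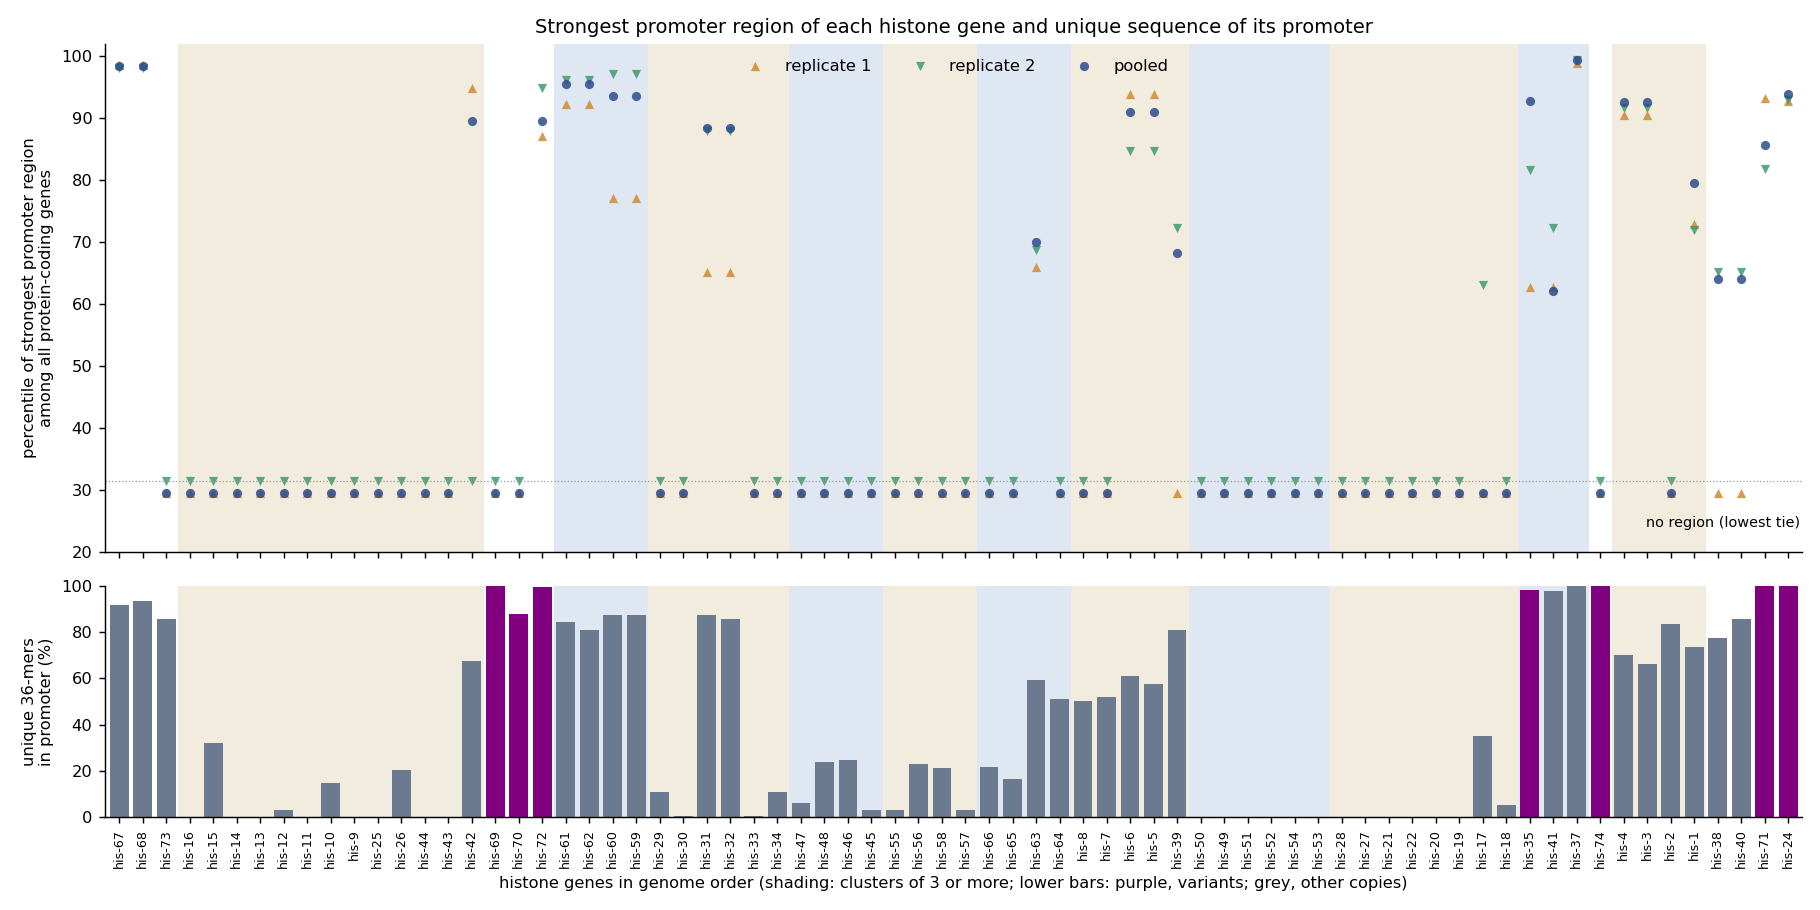
Upper panel, percentile of the strongest promoter region of each of the 72 histone genes among all genes in replicate 1, replicate 2 and the pooled list; lower panel, percent of 36-base words of its promoter that are unique, with variants in purple and shading for clusters. Most points lie at the lowest tie (29.5 for the pooled list), and all pooled points above it stand over promoters with at least 50% unique words.

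Replication-dependent copies had a pooled region at 20 of 65 genes and variants at 4 of 7. The median percentile was 29.5 for the copies and 85.6 for the variants with pooled replicates, 29.5 and 62.8 in replicate 1, and 31.4 and 81.6 in replicate 2. All 7 variants have promoters with over 50% unique words. Among copies with at least 50%, 20 of 25 had a region with a median percentile of 88.4, so the order of the medians turned: the copies were then above the variants by 2.80 points. No variant had a reproducible peak or a pooled q-value no higher than 0.01.

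The variant with the strongest region was his-24, which encodes the linker histone H1. Its pooled signal was 58.3 (rank 1710, q-value 0.0225), and its regions had a signal of 25.7 in replicate 1 (rank 2452) and 32.5 in replicate 2 (rank 2059). The summit lay 53 bp upstream of the start, both replicates had a summit within 200 bp of it, and no other gene shared it. Next came his-35, an H2A that differs from the replication-dependent protein at a single residue, G123A. Its strongest region (54.0, rank 2109) had its summit 977 bp upstream, inside C50F4.6 and also within reach of his-37, and the replicates listed its promoter at signals of 10.9 (rank 25153) and 20.9 (rank 7990). The replicate 1 summit was not within 200 bp of the pooled one.

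The H3.3 genes his-72 and his-71 had pooled regions at percentiles 89.5 and 85.6 of all genes. At his-72 the pooled signal was 45.0 (rank 3606) with a summit 621 bp upstream of an annotated start and within reach of the proteasome gene rpt-6. Replicate 2 had a summit within 200 bp of it (37.5, rank 1365), whereas the strongest replicate 1 region lay elsewhere, 24 bp downstream of a start (20.2, rank 5568). At his-71 the pooled signal was 38.4 (rank 5651), 713 bp upstream, with 26.4 in replicate 1 (rank 2207) and 21.1 in replicate 2 (rank 7820), both with summits within 200 bp. Both proteins are near copies of the replication-dependent H3: 94.1% of residues are identical for his-71, with 8 substitutions, and 93.4% for his-72, with 9. They share S88A, V90I and M91G, counted from the first methionine with the replication-dependent residue first; this stretch is known in animals to govern which chaperone receives H3. The more distant relatives his-74 (88.2% identity), his-69 (77.2%) and his-70 (76.5%) had a region in none of the lists, although 87.7% to 100% of their promoter words are unique.

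The strongest histone region was at his-37, an H4 copy with an intron, beside his-35 and his-41 on chromosome V. Its signal was 135.8 in the pooled list (rank 160), 50.7 in replicate 1 (rank 274) and 83.5 in replicate 2 (rank 144), with a pooled q-value of 0.0019. The region ran over V:9546795-9547224, and its summit at 9547010 lay between genes, 95 bp upstream of the start, with both replicates' summits within 200 bp. The same promoter held pooled regions of 54.0 and 33.9 besides. All of its promoter words are unique.

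The gap between his-61 (H2A) and his-62 (H2B) on chromosome IV also held a strong region. Its pooled signal was 66.6 (rank 1165, q-value 0.00816), with 24.9 in replicate 1 (rank 2761) and 42.2 in replicate 2 (rank 965). It was the strongest histone region outside the reproducible list, whose weakest signal is 82.0. The sequences around the summits of his-37, his-61 and his-24, from 100 bp on each side and stopping at the annotated start, are shown because an 8-base word, GTGTCCCC or GGGGACAC on the other strand, stands near each summit. They are from the RefSeq genome of WBcel235 (ce11), plus strand, 5′ to 3′, at chrV:9546910-9547104, chrIV:7486265-7486465 and chrX:14489941-14490093, with the word in capitals.
his-37 summit: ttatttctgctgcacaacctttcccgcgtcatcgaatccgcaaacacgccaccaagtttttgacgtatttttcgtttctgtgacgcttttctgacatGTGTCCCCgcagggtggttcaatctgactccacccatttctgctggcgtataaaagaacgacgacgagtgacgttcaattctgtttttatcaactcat
his-61 summit: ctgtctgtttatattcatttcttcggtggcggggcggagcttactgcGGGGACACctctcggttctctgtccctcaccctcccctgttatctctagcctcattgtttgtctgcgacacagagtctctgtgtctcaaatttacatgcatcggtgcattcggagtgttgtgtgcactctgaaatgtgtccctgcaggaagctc
his-24 summit: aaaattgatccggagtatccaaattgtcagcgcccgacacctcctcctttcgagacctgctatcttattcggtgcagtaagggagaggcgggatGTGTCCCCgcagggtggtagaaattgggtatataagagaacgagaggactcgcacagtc

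The word lies 1 bp from the summit at his-37, 2 bp from it at his-24 and 49 bp from it at his-61, measured to the middle of the word. In all 3 sequences it continues as GTGTCCCCGCAG on 1 of the strands. It was found by counting all 8-base words in the 250 bp upstream of histone starts, on both strands, and was the most common there, at 44 of 72 genes against 94 of 19973 overall (0.471%), with a median position of 128 bp upstream. The 12-base form was at 24 histone genes and at 26 genes in all. Since the word was picked for its frequency at histone genes, those shares are a description of the choice. The planned search, from 250 bp upstream to 50 bp downstream of the start, gave a different word, GGAGGAAA. It was at 47 of 72 histone promoters against 2.49% of all, at a median of 36 bp downstream of the start. That word too was picked for its frequency, and it is not followed below.

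The windows at histone summits overlap the promoters from which the word was picked, so its share there is a description too. Of the 17 strongest histone summits, 6 had the word within 100 bp, and the distance was 28 bp at his-67, 33 bp at his-6 and 67 bp at his-4 besides the values above. It was within 100 bp of 118 of all 27694 pooled summits (0.426%) and of 4 of the 669 reproducible ones. The 12-base form was at the same number of histone summits, at 13 of all pooled summits and at 2 of the reproducible ones. Over the members the 8-base word was upstream of 12 of the 24 genes with a pooled region and of 32 of the 48 without. These 32 all have promoters with under 50% unique words, where no histone gene had a pooled region. Of the 8 members with at least 50% unique words and no pooled region, none carried the word. The word was picked from these same promoters, and paired genes such as his-8 and his-7 share a gap. This split is therefore a description as well and does not count independent promoters. The part of the word apart from uniqueness was not tested. Only 1 variant, his-24, carried the word.

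Divergent pairs put the same word into settings of different uniqueness. The members form 31 divergent pairs, 16 of H2A with H2B, 14 of H3 with H4 and 1 of H4 with H2A, with gaps of 227 to 368 bp. A pooled summit lay in the gap of 7 of the 11 pairs with at least 50% unique words and of 0 of the other 20, among them 17 gaps with no unique word at all. The word was in 21 of the 31 gaps, and 16 gaps are letter for letter the same as at least 1 other, in 6 sequences.

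**Figure D3:**
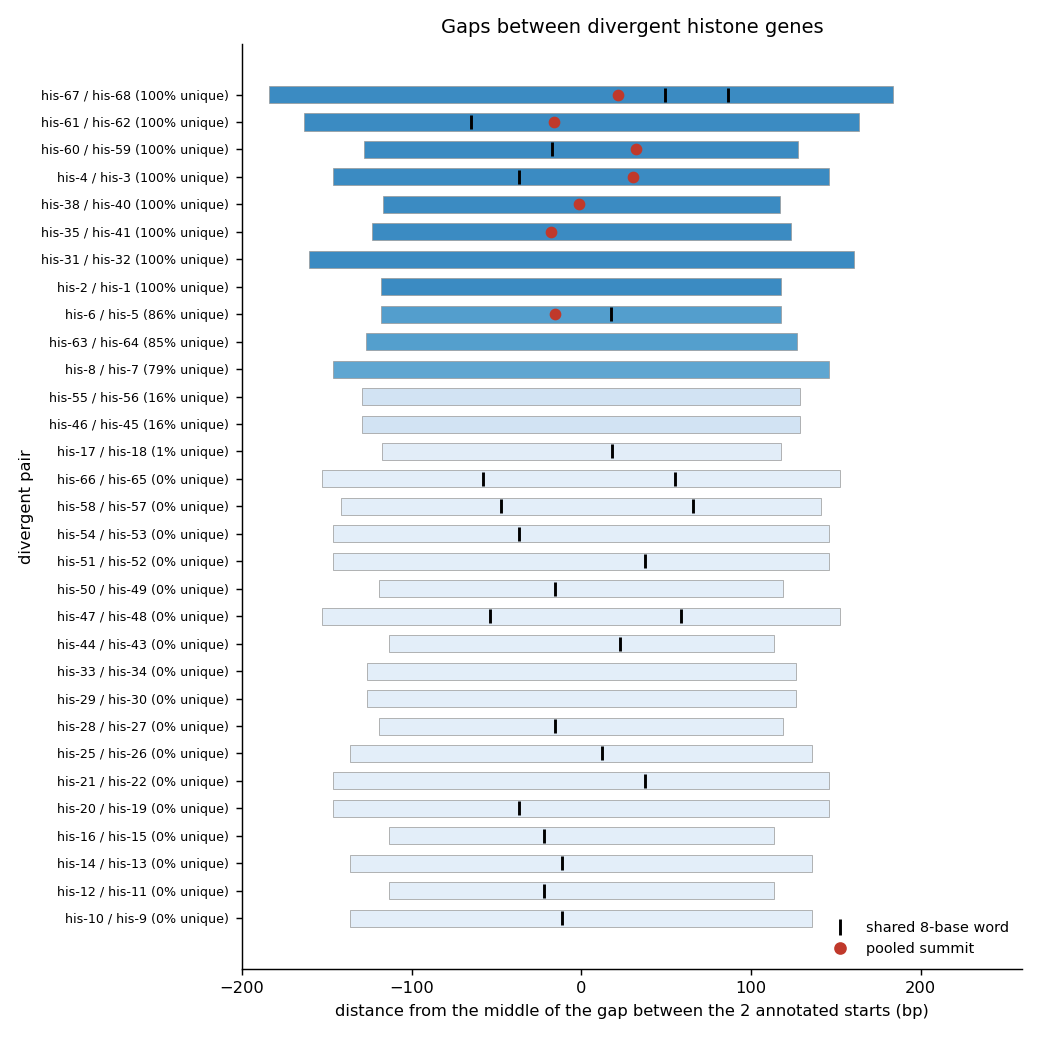
Gaps of the 31 divergent histone pairs, drawn to scale around their middle (horizontal axis, distance in bp), shaded and labelled by the percent of unique 36-base words, with ticks at the shared 8-base word and red points at pooled summits. Summits lie in 7 gaps, all with at least 85.6% unique words, whereas ticks lie in gaps both with and without unique words.

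The H2A/H2B gaps on chromosome V show the contrast among near copies. Between his-4 (H2B) and his-3 (H2A) the pooled signal was 53.2 (rank 2184), with 23.0 in replicate 1 (rank 3598) and 30.2 in replicate 2 (rank 2587), and all words of the gap are unique. The gap of his-8 and his-7 is 87.0% identical to it and that of his-52 and his-51 88.7%, and neither had a region in any list. The first has 79.4% unique words and lacks the shared word; the second exists in 4 identical copies with no unique word and has it. The 3 gaps are printed from the H2B start to the H2A start so that they can be read against each other, at chrV:16040516-16040807 and chrV:8533087-8533378 on the plus strand and chrV:8850172-8850463 on the minus strand.
his-4 to his-3: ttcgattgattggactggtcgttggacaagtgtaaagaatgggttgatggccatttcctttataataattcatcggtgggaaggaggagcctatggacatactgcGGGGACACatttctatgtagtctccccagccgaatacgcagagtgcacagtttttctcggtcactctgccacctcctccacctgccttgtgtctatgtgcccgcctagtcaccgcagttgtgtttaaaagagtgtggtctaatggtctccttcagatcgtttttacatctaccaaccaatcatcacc
his-8 to his-7: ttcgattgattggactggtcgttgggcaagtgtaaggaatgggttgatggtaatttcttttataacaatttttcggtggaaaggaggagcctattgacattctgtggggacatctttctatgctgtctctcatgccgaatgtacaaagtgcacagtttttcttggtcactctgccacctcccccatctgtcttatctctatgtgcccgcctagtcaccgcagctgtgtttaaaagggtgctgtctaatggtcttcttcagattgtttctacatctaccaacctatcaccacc
his-52 to his-51: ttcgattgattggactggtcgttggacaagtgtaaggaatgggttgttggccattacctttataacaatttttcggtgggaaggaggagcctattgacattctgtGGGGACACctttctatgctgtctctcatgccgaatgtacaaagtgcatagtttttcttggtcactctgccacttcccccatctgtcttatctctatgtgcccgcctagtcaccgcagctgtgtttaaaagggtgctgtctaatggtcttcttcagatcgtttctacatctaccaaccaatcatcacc

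A similar contrast was seen between the H3/H4 gaps printed below, but not all H3/H4 gaps followed it. No pooled summit lay between his-31 and his-32 or his-2 and his-1 (100% unique words each). The gap of his-63 and his-64 (85.4%) had none either. Between his-6 (H3) and his-5 (H4), with 85.6% unique words, the pooled signal was 48.4 (rank 2884), with 27.3 in replicate 1 (rank 1976) and 23.0 in replicate 2 (rank 6113). The gap of his-49 and his-50 is 94.5% identical to it, exists in 2 copies with no unique word, and had no region in any list. Both carry the shared word with its GCAG extension. They are printed from the H3 start to the H4 start, at chrV:8534978-8535213 on the plus strand and chrV:8847705-8847942 on the minus strand.
his-6 to his-5: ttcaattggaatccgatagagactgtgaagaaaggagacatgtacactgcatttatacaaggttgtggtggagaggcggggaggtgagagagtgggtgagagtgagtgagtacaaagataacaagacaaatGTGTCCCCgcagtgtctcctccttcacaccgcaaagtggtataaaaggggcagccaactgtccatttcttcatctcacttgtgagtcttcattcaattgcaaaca
his-49 to his-50: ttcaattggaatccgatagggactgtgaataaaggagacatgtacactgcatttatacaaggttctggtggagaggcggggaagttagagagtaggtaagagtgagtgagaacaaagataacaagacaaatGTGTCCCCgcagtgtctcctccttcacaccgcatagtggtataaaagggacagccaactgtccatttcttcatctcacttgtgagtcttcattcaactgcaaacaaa

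Other pairs on chromosomes IV and X had summits of lower rank or outside the gap. At his-59 and his-60 the strongest pooled region (57.3, rank 1799) had its summit in the coding exon of his-59, and a weaker one of 38.6 lay in the gap. The strongest replicate 2 region was at the coding summit (47.0, rank 724) and that of replicate 1 at the gap summit (15.2, rank 12517), so these are not the same region. At his-31 and his-32 the summit lay in the coding exon of his-32 (43.0, rank 4122), with 11.6 in replicate 1 (rank 22723) and 25.7 in replicate 2 (rank 4346). The X pair his-38 and his-40 had weak pooled (22.1, rank 22172) and replicate 2 regions (14.2, rank 21033) but none in replicate 1.

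A second reproducible peak lay in the gap of his-67 (H4) and his-68 (H2A) on chromosome I, which are in no cluster. Its signal was 100.2 in the pooled list (rank 397, q-value 0.00378), 46.9 in replicate 1 (rank 346) and 54.3 in replicate 2 (rank 486). The summit at I:9988969 lay 206 bp upstream of his-67 and 163 bp upstream of his-68, between genes, and was within reach of alg-5, an Argonaute gene, as well. Both replicates had a summit within 200 bp of it, and all words of the gap are unique. Its window held the shared word at 2 places.

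**Figure D4:**
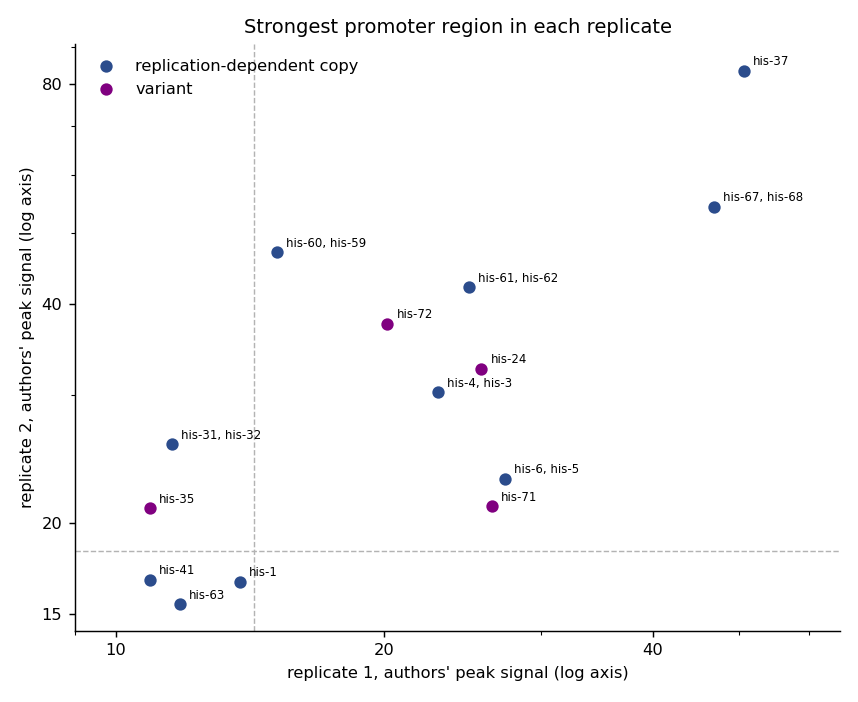
Authors' peak signal of the strongest promoter region in replicate 1 (horizontal log axis) and replicate 2 (vertical log axis) for the 20 histone genes with a region in all 3 lists, with genes sharing a region in 1 point and dashed lines at each list's median signal (14.3 and 18.3). The points of his-37 and of his-67 with his-68 stand apart at the upper right. The point of his-60 with his-59 joins different regions of the promoter in the replicates, as do those of his-72, his-35 and his-41.

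As the plot of the replicates' signals shows, the genes with reproducible peaks were high in both lists, and the remaining ones were not ordered alike. For the 24 genes with a pooled region, the summit of each replicate's strongest promoter region was compared with the pooled one. It lay within 200 bp in both replicates at 15 genes, in replicate 1 at 17 and in replicate 2 at 22. Weaker replicate regions were not compared. The region of his-42 (45.2, rank 3562) was in replicate 1 (29.4, rank 1565) and in no replicate 2 promoter region. Its summit lay 911 bp upstream of his-42, beyond the end of its cluster and 117 bp from a small nuclear RNA gene, C47F8.9. In contrast, the regions at his-39 (24.4) and at his-38 and his-40 had no replicate 1 counterpart.

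Regions were unevenly spread over the clusters. With neighbours at most 10 kb apart, 11 clusters of 3 or more members held 61 genes, and 17 of these had a pooled region, against 7 of the 11 unclustered members. Median percentiles were 29.5 for clustered and 64.1 for unclustered members in the pooled list and 31.4 and 65.1 in replicate 2, but 29.5 for both in replicate 1. Among members with at least 50% unique words the order turned, with 89.6 for 21 clustered and 64.1 for 11 unclustered genes. At this level 17 of 21 clustered members had a region.

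No pooled summit lay inside 5 clusters with 35 members, whose spans have 0% to 24.0% unique words: those on chromosome II from his-16 to his-42 (13 members), on IV from his-47 to his-45 and from his-55 to his-57 (4 each), and on V from his-50 to his-53 (6) and from his-28 to his-18 (8). The other 6 clusters have 50.2% to 99.0% unique words. Among them, 4 pooled regions lay in the 2949 bp from his-35 to his-37, which is 13.6 per 10 kb beside 2.76 in the whole genome. The clusters from his-4 to his-1 and from his-61 to his-59 held 3 each, or 11.2 and 10.6 per 10 kb. In the first the strongest was at his-4 and his-3. The H4 gene his-1 had the other 2, with signals of 31.9 (rank 9454), 721 bp upstream, and 23.4 (rank 19767), 491 bp upstream. The weaker summit lay in the coding exon of his-2, and neither was in the gap of his-2 and his-1. From his-8 to his-39 there were 2 (5.00 per 10 kb), the lower at the short H2B gene his-39. From his-29 to his-34 and from his-66 to his-64 there was 1 each. These are 1.89 and 1.43 per 10 kb, below the genome value, which covers all sequence and not gene-rich stretches alone. The region in the latter cluster was in no member's promoter. The H3 gene his-63 of that cluster had a region (25.4, rank 16609) with its summit 867 bp upstream, beyond the end of the cluster. At his-41, an H2B beside his-35, the gap summit had the lowest signal of the 24 genes (21.2, rank 24073).

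There were 8 histone genes with at least 50% unique words and no pooled region, the variants his-69, his-70 and his-74 and the copies his-2, his-7, his-8, his-64 and his-73. None of them had a region in a replicate list either. The other 39 members in no list have promoters with under 50% unique words, and his-17 was the single member with a region in a replicate list alone.

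Among the histone classes, members with at least 50% unique words had a region at 4 of 5 H2A genes, 4 of 5 H2B genes, 8 of 13 H3 genes, 7 of 8 H4 genes and the single H1 gene. The 5 H3 genes without one include the 3 variants named above. Under 50%, none of the 12 H2A, 12 H2B, 8 H3 and 8 H4 genes had one. Reproducible peaks were at 2 H4 genes and 1 H2A gene, and for promoters with at least 50% unique words 2.84% of all genes had such a peak.

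The element TGATAAG, searched on both strands from 250 bp upstream to 50 bp downstream of the start, was in none of the 72 histone promoters, while 9.19% of all promoters held it. It was also in none of the 17 windows at the strongest histone summits, beside 6.03% of all pooled windows and 10.0% of the reproducible ones. Its inner letters GATAA, which TGATAAG contains, were in 56 histone promoters (77.8%) against 57.6% of all, and in 6 of the 17 summit windows against 35.8% of pooled windows. The letters TATAAA were in 65.3% of histone promoters and 37.9% of all. GAGAGAGA was in 2 histone promoters and CACGTG in 1, beside 3.54% and 5.82% of all promoters. The 72 promoters hold many copies of the same sequence, so these shares do not count independent promoters.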

How the data were processed

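The authors called regions per replicate and on pooled replicates, against a control, and combined these into the reproducible list by their irreproducible discovery rate, as the deposited README text says. The aligner, peak caller, reproducibility threshold, read length and treatment of reads matching several places are not given in the sources that were used. The README text names a track of unique reads, which was not analysed here. The deposited signal is the authors' peak value and is not comparable between lists. False discovery rates are the deposited −log10 q-values; the authors left the p-value column unset. Of the regions, 999, 1305 and 1241 in the replicate 1, replicate 2 and pooled lists had a q-value of at most 0.01. The 4 lists in build ce11 were used and those in ce10 were not used here. Depth is unknown and gives no precision.

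Genes came from Ensembl release 115. It gives the 72 members 50 distinct symbols, since some identical copies share one, so RefSeq symbols matched by WormBase ID name them here (72 distinct). A gene's value is the region of highest signal with its summit in the promoter. Percentiles are among 19973 genes, with ties at their middle rank. Classes follow the highest protein identity to his-1, his-2, his-3, his-4 or his-24. Variants are a fixed list of 7 genes, and all other members were taken as replication-dependent copies. Unique words were 36 bases long (50 as an alternative), with both strands counted. Members, classes, lists and alternatives were chosen with earlier results of these data known, and the 8-base word search upstream of the start was added after seeing the data. Named genes were every member with a reproducible peak, every variant, the strongest and weakest region of each cluster, the strongest unclustered members, unique promoters without a region and related genes with a reproducible peak; others named were chosen after their values were seen. Computing was done in Python 3.11.15 with pandas 2.3.3, numpy 2.4.6, biopython 1.88 and matplotlib 3.10.9. Region assignment and word uniqueness were tested on simulated data.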

Additional observations from a re-analysis of the deposited data

How the results depend on the processing

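Values are given against the main ones of 24 histone genes with a pooled region, 3 with a reproducible peak, 22 distinct summits in their promoters, and median percentiles of 29.5 for all members, a copies minus variants difference of -56.2 points and a clustered minus unclustered difference of -34.6 points. With each region given to its nearest start only, 14 genes had a region, the median was 32.7, copies minus variants was -35.6 and clustered minus unclustered 0. No share of all genes was computed under that rule. With only pooled q-values no higher than 0.01, 5 genes and 3 summits were left. With a promoter from 500 bp upstream to 100 bp downstream there were 14 summits, a median of 35.5 and a copies minus variants difference of 0. With 2000 bp and 500 bp the median was 22.1, and with any overlap of at least 1 bp it was 26.4. Under these promoter rules, and in each replicate's list alone, most members had no region. Their median is then the tie value of genes without a region, which moves with how many of all genes lack one. With members without a region left out the median was 90.9. Among members with at least 50% unique words it was 88.4, and both differences reversed, to 2.80 for copies minus variants and 25.5 for clustered minus unclustered. With the stronger 50% of the reproducible peaks, 1 gene had one. In each replicate's list alone there were 21 to 24 genes with a region, 21 to 22 summits and 3 to 3 genes at its 669 strongest regions, which are not reproducible peaks since those need both replicates; the median was 29.5 to 31.4, copies minus variants -50.2 to -33.2 and clustered minus unclustered -33.7 to 0. A recomputed count was called unchanged within a set ratio of the main one. A median or difference was called unchanged within the standard deviation of the 2 single-replicate values. By this wide rule 28 values were unchanged, 18 moved and 2 reversed in sign. The clustered minus unclustered difference of -57.7 with 2000 bp and 500 bp was among the unchanged. The 18 include the use of 50-base words, which was called moved without that comparison. The narrower promoter, nearest starts and ties of genes without a region change what is counted; the cause of the other shifts was not tested. No paired analysis was possible because the series has a single group. Unknown depth leaves it undetermined which missing regions are below detection.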

Other observations

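Genes that work with histones but are no members gave a further view of the same lists. Of 11 linker and variant histone genes outside the his- symbols, 7 had a pooled region and none a reproducible peak, beside 41.1% and 2.75% of all genes, with a median percentile of 62.7. The strongest were htz-1, which encodes H2A.Z (57.6, rank 1772), the linker histone gene hil-3 (44.5, rank 3708) and hcp-3, which encodes the centromeric H3 (40.2, rank 4986). No pooled region was listed at hil-4, hil-5, hil-6 or htas-1.

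Of 12 genes for histone chaperones and histone mRNA handling, 9 had a pooled region and 2 a reproducible peak, beside the same 41.1% and 2.75% of all genes, with a median percentile of 84.8. The peak at chaf-2, which encodes a subunit of the CAF-1 chaperone that places H3 and H4 on replicated DNA, had a signal of 240.9 and rank 16 of all pooled regions, and its promoter was at percentile 99.9 in each replicate. The peak at unc-85, which encodes an ASF1 chaperone of H3 and H4, had a signal of 114.7 (rank 266). The chaf-2 signal is above that of his-37 (135.8), and the unc-85 signal lies between those of his-37 and his-67 (100.2). The region at lin-53, an RbAp46/48 relative, had 57.3 (rank 1802) and that at cdl-1, the stem-loop binding protein of histone mRNA, 37.9 (rank 5876). The cdl-1 promoter was at percentile 85.3 in the pooled list, 95.8 in replicate 1 and 94.9 in replicate 2. No region was listed at asfl-1, rba-1 or hmg-3.

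The 8-base word shared by histone gaps was upstream of 50 genes that are no members. Pooled regions were at 26 of these (52%), with a median percentile of 59.6, and 1 of them, egl-17, had a reproducible peak (2%). Over all genes these shares are 41.1% and 2.75%.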
